A study of Zea mays with 4 samples.

Results

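The microRNA families miR397, miR398, miR408 and miR528 were followed in maize leaves with and without feeding by *Spodoptera frugiperda*, the fall armyworm. Members were all sequences whose listed name held miR or MIR and 1 of these 4 family numbers with no further digit. There were 15 of them among the 319 distinct sequences of the table, namely 2 of miR397, 3 of miR398, 6 of miR408 and 4 of miR528. The rule used names only and no measured value. Small RNA was sequenced from leaves of *Zea mays* plants with 4 leaves, in 4 libraries. The fed libraries are T1 (1 day of feeding) and T3 (3 days). The unfed controls are CK1 and CK3, and their labels give the tissue alone. No maize line, plant age in days, number of pooled plants or sampling day of the controls is stated, and the protocol mentions a larger number of libraries than was analysed here. Each group thus held 1 library, so a difference between a pair of libraries has no replicate check.

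Plants spend much of their copper on plastocyanin, which carries electrons in photosynthesis, and on oxidases of the cell wall and apoplast. When copper is short, the transcription factor SPL7 of Arabidopsis switches on a set of microRNAs that silence less essential copper proteins. In Arabidopsis, miR397 targets laccases, the enzymes that couple lignin precursors, miR398 targets Cu/Zn superoxide dismutases and their copper chaperone, and miR408 targets plantacyanin and laccases. miR528 is known from grasses and other monocots, where it targets an ascorbate oxidase in rice and laccases in maize. Each microRNA is cut from a hairpin as a short duplex of a 5p and a 3p strand, of which usually the strand loaded into the silencing complex accumulates.

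The sequence with the highest mean over the 4 libraries is shown first for each strand and is called its leading form. In the 3p strand of miR528 and the 5p strand of miR398 this rank did not hold in every library, as their values below show. Capitals mark the seed, bases 2 to 8 counted from the 5′ end, and letters are as listed in the deposited table, with T for U.

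zma-MIR397b-p5: tTGAGCGCagcgttgatgagc
zma-MIR397b-p3: tCACCAGCgctgcactcaatt
zma-miR398b-5p_R-1: gGGGCGGActgggaacacat
zma-miR398a-3p: tGTGTTCTcaggtcgcccccg
zma-MIR408a-p5: cAGGGATGagacagagcatgg
zma-miR408a: cTGCACTGcctcttccctggc
zma-miR528a-5p: tGGAAGGGgcatgcagaggag
bdi-MIR528-p3_1ss21GT: tGCCTGCCtcttccattccttc

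The next set shows the remaining forms, because most of them have another seed than the leading form of their strand.

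zma-miR398a-5p_R+2_1ss21GA: gGGGCGAActgagaacacataag
zma-miR408b-5p_L+1: aCAGGGACgaggcagagcatgg
gma-miR408a-3p_L-1R+4: tGCACTGCctcttccctggctttt
osa-miR408-3p_L-1R+2: tGCACTGCctcttccctggctt
aof-miR408_R+1_2ss19GT20CT: tGCACTGCctcttccctgtttt
zma-miR528a-3p: cCTGTGCCtgcctcttccatt
bdi-miR528-5p_R+1: tGGAAGGGgcatgcagaggaga

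The 15 sequences held 12 different seeds. The 3 minor miR408 3p forms shared the seed GCACTGC, since they began 1 base further along than zma-miR408a. The form bdi-miR528-5p_R+1 differed from zma-miR528a-5p by 1 added a at its 3′ end and was the only minor form that kept the seed of its leading form. zma-miR398a-5p_R+2_1ss21GA carried G7A and G12A relative to zma-miR398b-5p_R-1, and had aag added at its 3′ end. zma-miR408b-5p_L+1 carried T7C and A11G relative to zma-MIR408a-p5 and began 1 base earlier with an added a, which also shifts its seed. Positions are counted from 1 at the 5′ end of the leading form. Prefixes other than zma mark names from other plants and were carried by 5 of the 15 members. The maize gene table of RefSeq (assembly Zm-B73-REFERENCE-NAM-5.0) lists precursors a and b for all 4 families. Of these, MIR397a and MIR528b gave their name to no member, and reads from copies with the same mature sequence cannot be told apart.

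Laid antiparallel without gaps, the leading miR397 strands faced each other at 19 positions, of which 17 formed Watson-Crick or G-U pairs, with 2 unpaired bases at either 3′ end. The leading miR408 strands paired at 15 of 19 positions with the same overhangs. For miR398 it was 18 of 19, with 2 unpaired bases at the 3′ end of the 3p and 1 at that of the shortened 5p strand. In miR528 the maize-named zma-miR528a-3p paired with zma-miR528a-5p at 17 of 19 positions with 2-base overhangs. bdi-MIR528-p3_1ss21GT, the form with the higher mean, began 4 bases further along and left a 7-base overhang.

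Deposited values were multiples of a step for 90.4% to 93.8% of the entries above 0, and the step taken as 1 read was 0.736 units of normalized signal for CK1, 0.826 for CK3, 0.303 for T1 and 0.352 for T3. It gave 87014, 90834, 209054 and 180674 implied reads over the listed sequences, fewer than the whole libraries hold. For most members the implied reads were even numbers in every library, so 1 read may be worth more than the step. Implied reads would then be too many and the counting intervals below too narrow. CK3 stood apart from the other libraries. Across the 74 sequences with a mean of at least 50 units the SD of log2 ratios was 1.001 to 1.32 in pairs with CK3 and 0.54 to 0.63 in the other pairs. The 4 families made up 10.7% and 11.1% of the listed signal in the unfed libraries CK1 and CK3 and 12.6% and 11.7% in T1 and T3. Their median GC content was 57.1%, against 50% over all 319 sequences.

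miR397, the laccase regulator, was carried mainly by its 5p strand, and this strand was the member of the family that varied. zma-MIR397b-p5 stood at 988 units of normalized signal in CK1 and 2209.8 in CK3, and at 1734 in T1 and 1035 in T3. CK3 and T1 were thus high and CK1 and T3 low, and the fed values lay inside the range of the unfed ones. The 3p strand zma-MIR397b-p3 stood at 215, 228, 274 and 233 units in the same order, a range of 1.28-fold. From CK1 to CK3 the 5p strand was 2.24-fold higher, with a 95% counting interval of 2.09 to 2.39, while the ratio of the 3p strand was 1.06 (0.896 to 1.25). These intervals come from implied reads and cover counting error only. They would be wider if a read is worth more than the step. The log2 ratio of the family total to the unfed library with the same number in its title was 0.74 at day 1 and -0.94 at day 3. With the unfed libraries exchanged it was -0.28 and 0.08, so the sign depended at both times on which control was used.

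miR398, the superoxide dismutase regulator, was the least abundant of the 4 families and the only one whose total was highest at day 3. Its main strand zma-miR398a-3p stood at 210.5 units in CK1 and 277 in CK3, and at 266 in T1 and 399.9 in T3. T3 was above the other libraries, while T1 and CK3 were close together. The day 3 value was 1.44-fold that of CK3 (counting interval 1.28 to 1.63) and 1.501-fold that of T1 (1.37 to 1.64). The log2 ratio of the family total was 0.50 for T1 against CK1 and 0.43 for T3 against CK3. With the unfed libraries exchanged it was 0.0007 for T1 and 0.93 for T3.

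The 5p strands of miR398 differed from each other in their order of libraries. zma-miR398b-5p_R-1 stood at 26.5, 79.3, 67.8 and 43.0 units in CK1, CK3, T1 and T3, the same order of libraries as for miR397. zma-miR398a-5p_R+2_1ss21GA stood at 26.5, 14.9, 37.5 and 58.4 units, with its lowest value in CK3 and both fed libraries above both unfed ones. The forms were equal in CK1, zma-miR398b-5p_R-1 was higher in CK3 and T1, and zma-miR398a-5p_R+2_1ss21GA was higher in T3, at 136% of the former. The latter rested on 36, 18, 124 and 166 implied reads.

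miR408, the plantacyanin and laccase regulator, had the highest total of the 4 families in each library, and its main strand was among the steadiest members. zma-miR408a stood at 2641 units in CK1 and 3844 in CK3, and at 3109.6 in T1 and 3332 in T3. It ranked the sixth of the 319 sequences by its mean. Its range was 1.46-fold, and both fed values lay between the unfed ones. The log2 ratio of the family total was 0.25 for T1 against CK1 and -0.17 for T3 against CK3, and -0.22 and 0.30 with the unfed libraries exchanged. At equal library totals the ratio for T3 against CK3 was 0.07.

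The minor strands of miR408 were far less steady. The 5p strand zma-MIR408a-p5 stood at 116, 44.6, 187 and 103 units in CK1, CK3, T1 and T3. It was lowest in CK3, the library in which zma-miR408a was highest. The rarer 5p form zma-miR408b-5p_L+1 stood at 26.5 units in CK1, 9.08 in T1 and 4.93 in T3. It was listed at 0 in CK3, where 5 implied reads are worth 4.13 units. Few values under 5 implied reads are listed, so a 0 does not show absence.

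The 3p forms of miR408 that began 1 base later differed among themselves. gma-miR408a-3p_L-1R+4, which ends in 4 T beyond zma-miR408a, stood at 74.1, 28.9, 93.1 and 91.9 units, or 2.80%, 0.752%, 2.995% and 2.76% of zma-miR408a. Its share was thus lowest in CK3. aof-miR408_R+1_2ss19GT20CT, which carries G20T and C21T relative to zma-miR408a, stood at 8.83, 61.1, 25.4 and 19.7 units, or 0.334%, 1.59%, 0.818% and 0.592%. This form was highest in CK3 and rested on 12 implied reads in CK1. osa-miR408-3p_L-1R+2 stood at 45.6, 51.2, 34.5 and 38.7 units, with both fed values below both unfed ones.

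miR528, the laccase and ascorbate oxidase regulator of grasses, had a total that ran opposite to those of miR397, miR398 and miR408 between the unfed libraries. zma-miR528a-5p stood at 2157 units in CK1 and 1201 in CK3, and at 1857 in T1 and 1867 in T3. Only CK3 was low, and T1 and T3 differed by a ratio of 1.005 (counting interval 0.969 to 1.04). CK3 held 0.557 times the value of CK1 (0.522 to 0.593). The log2 ratio of the family total was -0.20 for T1 against CK1 and 0.50 for T3 against CK3, and 0.52 and -0.23 with the unfed libraries exchanged.

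The other miR528 sequences were minor. The form with 1 added base, bdi-miR528-5p_R+1, stood at 75.1, 66.1, 38.8 and 39.4 units in CK1, CK3, T1 and T3, with both fed values below both unfed ones. It amounted to 3.48% and 5.50% of zma-miR528a-5p in the unfed libraries and 2.09% and 2.11% in the fed ones. zma-miR528a-3p stood at 127, 73.5, 127 and 109 units and was, like its 5p partner, lowest in CK3. The shifted bdi-MIR528-p3_1ss21GT stood at 113, 154, 125 and 93.6 units and was highest there. zma-miR528a-3p thus amounted to 112%, 47.8%, 101% and 116% of the shifted form, which led in CK3 alone.

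**Figure D1:**
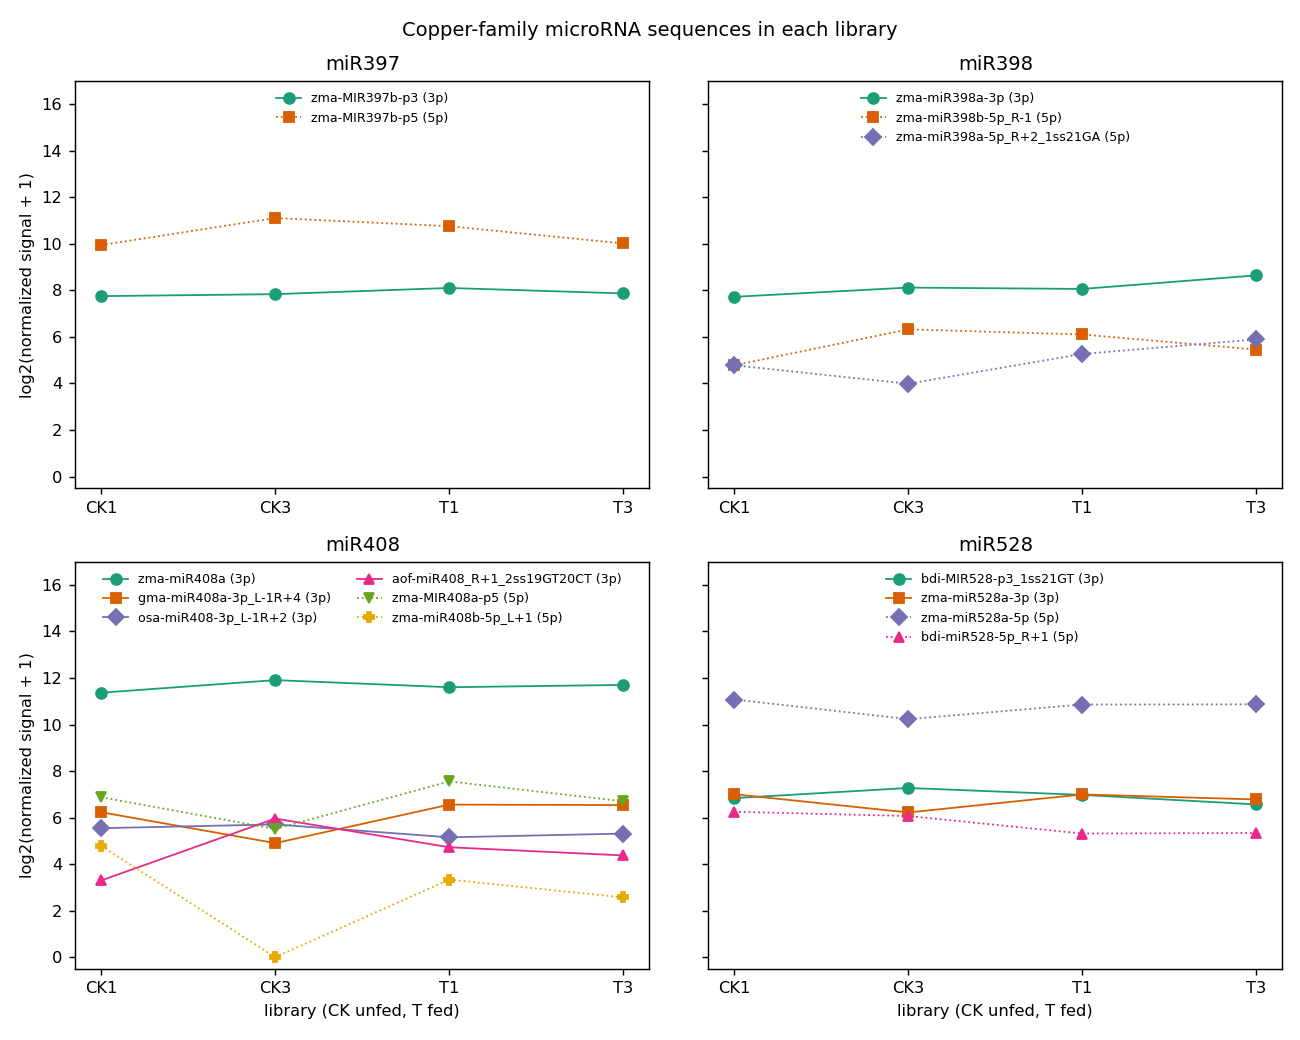
Level of each of the 15 sequences as log2(normalized signal + 1) in the 4 libraries, 1 panel per family, with solid lines for 3p and dotted lines for 5p strands; lines join the values of a sequence and imply no order of libraries. The leading miR397 strand is highest in CK3 at 2209.8 units, the leading miR528 strand lowest there at 1201, and zma-miR408b-5p_L+1 is listed at 0 in CK3.

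The strand that dominated was the same in all 4 libraries for each family. In miR397 the 5p total was 4.44 to 9.70 times the 3p total, and in miR528 5.58 to 9.42 times. In miR398 the 3p total was 2.53 to 3.97 times the 5p total, and in miR408 16.6 to 89.4 times. The arm of zma-miR408a and of aof-miR408_R+1_2ss19GT20CT is not in their names and was set from shared runs of 20 and 18 bases with osa-miR408-3p_L-1R+2.

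How strongly the dominant strand prevailed did vary between libraries. The log2 of 3p over 5p in miR408 was 4.28 and 6.48 in CK1 and CK3 and 4.06 and 5.01 in T1 and T3, and the counting interval of CK3 (6.10 to 6.90) did not reach those of the others. In miR397 it was -2.20, -3.28, -2.66 and -2.15, again with CK3 at the extreme. In miR528 CK3 was the least skewed library, at -2.48 against -3.21, -2.92 and -3.24 in CK1, T1 and T3. In miR398 the values were 1.99, 1.56, 1.34 and 1.98 in CK1, CK3, T1 and T3. By these totals T1 was the least skewed library, with a counting interval of 1.16 to 1.52. Those of CK1 (1.61 to 2.38) and T3 (1.79 to 2.17) lay above it, and that of CK3 (1.25 to 1.88) overlapped the others. All implied reads of miR398 members were even, so these intervals may be too narrow. The gap between T1 and CK1 is small and was not established. From the leading entries alone CK3 was the least skewed library of miR398, at 1.81 against 1.97 in T1. The strands of a family could thus part: between CK1 and CK3 the 3p total of miR408 had a log2 ratio of 0.52 and its 5p total one of -1.66.

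**Figure D2:**
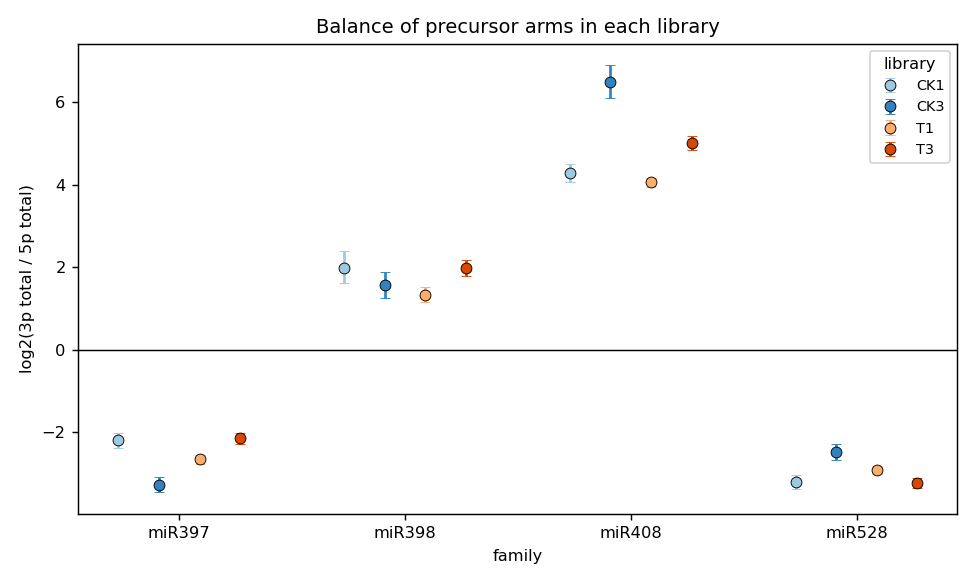
Balance of strands, as log2 of the 3p total over the 5p total, for each family and library. Points are single libraries. Bars are exact 95% intervals from implied reads and cover counting error only. They would be wider if a read is worth more than the step. miR397 and miR528 lie below 0 and miR398 and miR408 above it in every library, and miR408 in CK3 lies highest, at 6.48.

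Members past a 2-fold difference between single libraries were counted on log2(signal + 1), with at least 10 units in the higher library and without a test. Between T1 and CK1, 2 of 15 members were higher, zma-miR398b-5p_R-1 and aof-miR408_R+1_2ss19GT20CT, against 15.8% of all 165 sequences compared. Only zma-miR408b-5p_L+1 was lower, against 10.3% of all sequences. The members' shares were thus near those of the table. Their median log2 ratio was 0.33, where that of all sequences was -0.12. With CK3 as the control of T1 these medians were -0.14 and -0.04, so their order depended on the control.

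Between T3 and CK3, 3 of 14 members were at least 2-fold higher, against 24.9% of all 185 sequences. They were zma-miR398a-5p_R+2_1ss21GA, gma-miR408a-3p_L-1R+4 and zma-MIR408a-p5, with log2 ratios of 1.91, 1.64 and 1.19. The lower ones were zma-MIR397b-p5 and aof-miR408_R+1_2ss19GT20CT, 2 of 14 against 23.2%, with -1.09 and -1.58. The median was -0.09 over members and 0.01 over all sequences. Between T3 and T1 no member passed in either direction, where 13.9% of 165 sequences were higher and 3.64% lower.

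The unfed libraries also differed from each other. From CK1 to CK3, 3 of 15 members were higher, against 28.9% of 187 sequences, and 3 were lower, against 22.5%. The higher ones were zma-MIR397b-p5, zma-miR398b-5p_R-1 and aof-miR408_R+1_2ss19GT20CT, with log2 ratios of 1.16, 1.55 and 2.66. The lower ones were gma-miR408a-3p_L-1R+4 and zma-MIR408a-p5, with -1.33 and -1.36, and zma-miR408b-5p_L+1, listed at 0 in CK3. This comparison shares CK3 with that of T3 and CK3.

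**Figure D3:**
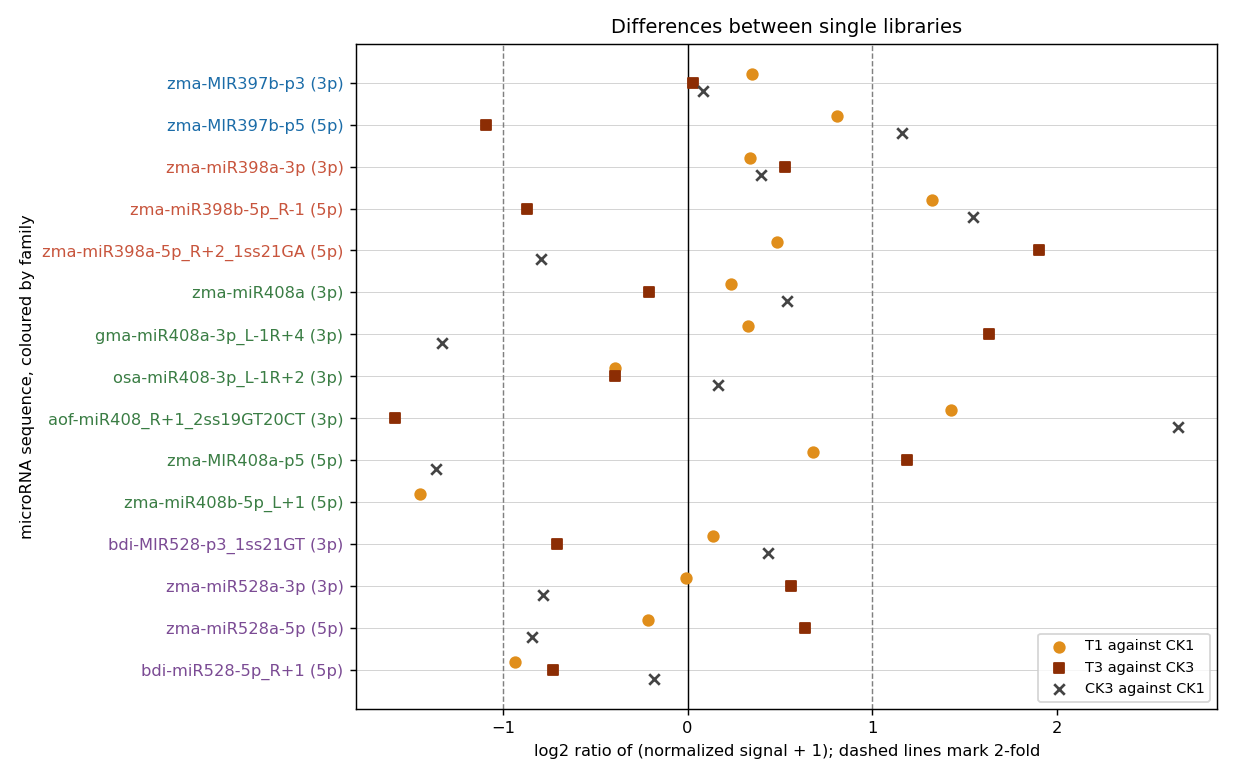
Log2 ratios of (normalized signal + 1) for each member in 3 pairs of libraries, without the ratios of zma-miR408b-5p_L+1 that involve its 0 in CK3. The dashed lines mark 2-fold; zma-MIR397b-p5 lies at 0.81 for T1 against CK1, -1.09 for T3 against CK3 and 1.16 for CK3 against CK1.

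Fed against unfed libraries, 2 against 2, no member was called by limma. Of the 15 members, 14 had at least 10 units in at least 2 libraries and entered the test over 154 sequences, of which 0% were called at an adjusted p of 0.05. At an unadjusted p under 0.05 there were 6 among all sequences and none among the members. The spread in this test includes the differences between CK1 and CK3 and between the feeding days. No label states separate plants, so the p-values measure only how these 4 samples spread. The fed libraries were also the deeper ones, and the part of depth in any difference was not tested.

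With all 4 libraries the largest difference among the members was that of zma-miR398a-5p_R+2_1ss21GA, 1.20 ± 0.57 on the log2 scale (SE, limma adjusted p = 0.83, both fed libraries above both unfed ones). Next came gma-miR408a-3p_L-1R+4 at 0.98 ± 0.60, zma-MIR408a-p5 at 0.93 ± 0.66 and bdi-miR528-5p_R+1 at -0.83 ± 0.44, with the same adjusted p. This order depended on single libraries. Without CK3 the difference was 0.80 for zma-miR398a-5p_R+2_1ss21GA, 0.32 for gma-miR408a-3p_L-1R+4 and 0.25 for zma-MIR408a-p5, smaller in size than those of aof-miR408_R+1_2ss19GT20CT at 1.25 and bdi-miR528-5p_R+1 at -0.92. Without CK1 the same 3 stood at 1.59, 1.64 and 1.62. zma-MIR408a-p5 was 0.51 without T1. The leading strands had smaller differences of -0.14 ± 0.50 for zma-MIR397b-p5, 0.43 ± 0.41 for zma-miR398a-3p, 0.01 ± 0.26 for zma-miR408a and 0.21 ± 0.36 for zma-miR528a-5p. Without CK3 the difference was 0.44 for zma-MIR397b-p5 and -0.21 for zma-miR528a-5p, and without CK1 it was -0.26 for zma-miR408a. Without T3 it was 0.23 for zma-MIR397b-p5 and -0.04 for zma-miR408a. The sign thus turned without CK3 for zma-miR528a-5p, without CK3 or T3 for zma-MIR397b-p5, and without CK1 or T3 for zma-miR408a. For zma-miR408a the 95% interval, not adjusted for the number of sequences tested, ran 0.68 to either side of its difference. This is no limit of detection, since larger changes could also have been missed.

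Both fed libraries lay above both unfed ones for 3 of the 14 members, against 17.5% of the 154 sequences. These were zma-MIR397b-p3, zma-miR398a-5p_R+2_1ss21GA and gma-miR408a-3p_L-1R+4. Both lay below for bdi-miR528-5p_R+1 and osa-miR408-3p_L-1R+2, 2 of 14 against 9.74%. None of the 5 was the leading strand of its family. Except for bdi-miR528-5p_R+1, the counting interval of the ratio between the closest fed and unfed libraries included 1. The ratio of T3 to CK3 was 1.02 for zma-MIR397b-p3 (counting interval 0.887 to 1.18). For zma-miR398a-5p_R+2_1ss21GA that of T1 to CK1 was 1.42 (0.971 to 2.12), and for gma-miR408a-3p_L-1R+4 that of T3 to CK1 was 1.24 (0.979 to 1.57). osa-miR408-3p_L-1R+2 stood in T3 at 0.849 times its value in CK1 (0.616 to 1.18). In bdi-miR528-5p_R+1 the closest pair was T3 and CK3, with a ratio of 0.597 (0.444 to 0.805).

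Summed by family, the fed minus unfed difference was -0.10 ± 0.49 (SE) for miR397, 0.46 ± 0.35 for miR398, 0.04 ± 0.24 for miR408 and 0.15 ± 0.33 for miR528. In the limma fit over 44 family totals 2.27% were called, and none of these 4, with adjusted p between 0.65 and 0.99. Without CK3 the difference of miR397 was 0.41 and that of miR528 -0.22, so both signs depended on that library. For miR397 the sign also changed without T3 (0.23) and at equal library totals (0.03), and for miR408 without CK1 (-0.19).

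**Figure D4:**
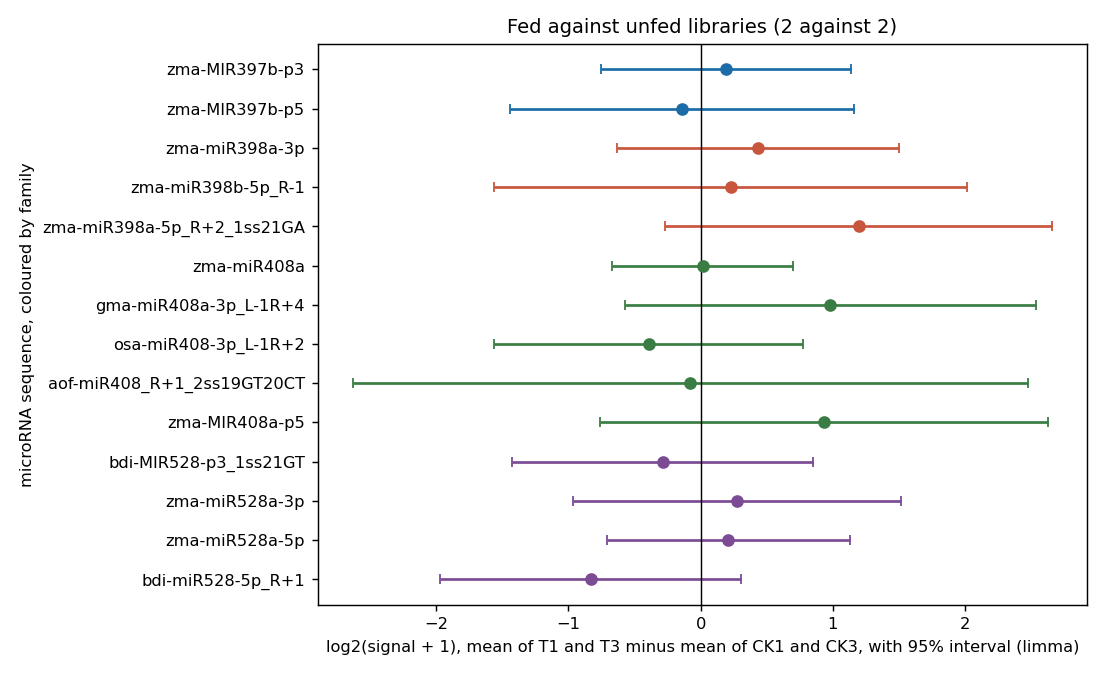
Difference between the mean of the fed and the mean of the unfed libraries, on log2(normalized signal + 1), with 95% intervals from limma for the 14 members tested; 2 libraries stand on each side. Every interval spans 0, and that of zma-miR408a is the narrowest.

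The 4 families did not move as a unit across the libraries. After subtraction of each sequence's own mean, the leading strands of miR398 and miR408 differed by a root mean square of 0.27 log2 units over the 4 libraries, and those of miR397 and miR408 by 0.38. miR398 with miR528 gave 0.497, miR408 with miR528 gave 0.501 and miR397 with miR398 gave 0.613. The leading strands of miR397 and miR528 were farthest apart, at 0.78. Over all 2701 pairs of the 74 sequences with a mean of at least 50 units the median was 0.60, with quartiles of 0.377 and 0.952. Thus 4 of the 6 pairs of leading strands lay below the median, 2 lay above it, and none passed the upper quartile. A low value can come from small changes and does not show movement together. miR408 and miR528 lay below the median, yet their centred values were -0.28 and 0.32 in CK1 and 0.26 and -0.53 in CK3.

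By the same measure, the sequences outside these families most like zma-MIR397b-p5 were zma-MIR169c-p3 at 0.17, zma-MIR169c-p5 at 0.22 and osa-miR169r-5p_R+1_2ss9GC20TC at 0.23, all of the nuclear factor Y regulator miR169. For instance, zma-MIR169c-p3 stood at 58.9, 95.8, 93.2 and 57.0 units in CK1, CK3, T1 and T3. Closest to zma-miR398a-3p were zma-miR156a-5p at 0.21, zma-miR168a-3p_R+1 at 0.27 and zma-miR166a-3p at 0.28. Closest to zma-miR408a were tae-MIR9774-p5_2ss4AG21GT at 0.06 and zma-miR156a-5p and zma-miR167e-5p at 0.11 each. Closest to zma-miR528a-5p were zma-miR159a-3p at 0.08 and zma-miR444a and zma-miR167h-3p_L+1R+1 at 0.10 each. Each search covered 63 sequences, and with 4 libraries such likeness is a description only.

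The sequences of miR408 and miR528 had a stretch in common. All 4 miR408 3p forms and both miR528 3p forms held the run CTGCCTCTTCC of 11 bases, which no other of the 319 sequences held. A shared run of 11 bases occurred in 10 of 37220 pairs of named sequences from different families, and 8 of these were pairs of a miR408 with a miR528 3p form. These 8 pairs count the same stretch repeatedly, since the 3p forms within each family overlap in sequence. The length of 11 was itself the longest run shared between families among the members, so the count is a description only. In miR408 this strand was the dominant one, at 3844 units for zma-miR408a in CK3. In miR528 it was the minor one, at 154 units for bdi-MIR528-p3_1ss21GT and 73.5 for zma-miR528a-3p in the same library. No entry carried the names miR857 or miR1444, the other families of copper protein regulators on the list used here.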

How the data were processed

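Leaf small RNA libraries were prepared from Trizol-extracted total RNA with a TruSeq Small RNA kit, per the labels' protocols. The values are normalized signal per microRNA sequence and library, scaled by the authors per the file headers. For the scaling, genome build, aligner and microRNA caller, the method is not given in the sources used here. The deposited sequence length matched the listed sequence in every row. The 500 rows (21 of members) held 319 sequences, and rows of a sequence had equal values, so each was used once, without merging. Part of the values were fractions of a read, so reads that sequences share cannot be told apart, and shares of the listed signal are approximate. The value taken as 1 read was the largest step of which at least 85% of low values were multiples, within 0.02 of the step. Since the others were fractions, no count model was used. All members but gma-miR408a-3p_L-1R+4 were whole multiples of the step in every library.

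Log2 ratios between libraries are differences of log2(value + 1), which understate the change of low entries. Fold ratios, their counting intervals and strand balances were computed without the added 1. A pair of libraries was compared by size alone (2-fold, at least 10 units in the higher library). Fed and unfed libraries were compared with limma 3.58.1 in R 4.3.3 with a trended prior and Benjamini-Hochberg adjustment over all entries, or over all family totals, with at least 10 units in at least 2 libraries. This step, the step finder and the exact (Clopper-Pearson) 95% intervals were tested on simulated data. Strands came from names, or from a shared run of at least 16 bases. Every member was to be named that had at least 10 units in some library, which all 15 had, together with the 3 sequences most like each leading strand. Members, lists and tests were chosen with earlier results of these data known. Alternatives were other scalings, pseudocounts, minimum values, controls, merged sequences, maize names only, leading entries only, no trended prior, leaving out each library and, added after the data were seen, the title number as a block. Promoters and precursor sequences were not used here.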

Additional observations from a re-analysis of the deposited data

Results flagged for a closer look

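Some results went in opposite directions at the 2 feeding times and differed between them by at least 2-fold on log2(signal + 1). With 1 library per group these differences were not tested, and the times used different controls. The miR397 total had a log2 ratio of 0.74 at day 1 and -0.94 at day 3, a difference of -1.68. Its strand zma-MIR397b-p5 went from 0.81 to -1.09, a difference of -1.90. zma-miR398b-5p_R-1 went from 1.32 to -0.87, a difference of -2.19. aof-miR408_R+1_2ss19GT20CT went from 1.43 to -1.58, a difference of -3.01. CK3, the unfed library set against T3, was the library with the highest value for each of these 3 sequences. Between T3 and T1 their log2 ratios were -0.74, -0.65 and -0.35.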

How the results depend on the processing

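Each group had 1 library, and for 3 of the 4 families (miR397, miR408 and miR528) the sign of the ratio at both feeding times depended on which unfed library served as control, the cause of which was not tested. Merging joined no member, so its counts could not move. Alternatives, merging among them, left 49 of 52 counts of members past 2-fold within 1.5 times. The exceptions were the members lower in T3 than in CK3, 1 at equal totals and 1 against CK1 in place of 2, and those lower in CK3 than in CK1, 6 at equal totals in place of 3. limma called 0 members under every alternative (also when any library was left out, where the lone library of a side is assumed to vary like the pair opposite). Over all features it called 2 entries with no trended prior and 3 without T1 in place of 0, and 18 family totals without CK1, 4 without CK3 and 0 under either other scaling or without T1 or T3 in place of 1. Differences of members changed sign, with none called, for zma-miR398b-5p_R-1 without CK1 (-0.55) or T1 (-0.10), zma-miR528a-3p without CK3 (-0.12), and aof-miR408_R+1_2ss19GT20CT without CK3 (1.25) or T3 (0.10) and at equal totals (0.05). CK1 shares a title number with T1 and CK3 with T3, and no label says what else such a pair shares. A limma fit with that number as a replicate block, added after the data were seen, leaves 1 residual degree of freedom. It called 0 members, 0 of 154 sequences and 0 of 44 family totals in place of 1, with differences as before and a lowest adjusted p over members of 0.74 (0.60 over the 4 families). Same-numbered libraries deviated from the fed and unfed means with a correlation of 0.306 over those sequences, and with 2 pairs this does not show that the numbers pair the samples.

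Family ratios stayed within their counting interval in 56 of 88 cases. These cases include merged sequences for all families and maize names only for miR397 and miR398. Neither could move a ratio, since no member was merged and all members of miR397 and miR398 carry maize names. The cases that could move thus stayed less often. With the other unfed library, T1 gave -0.28 (miR397), 0.000713 (miR398), -0.22 (miR408) and 0.52 (miR528), and T3 gave 0.0767, 0.93, 0.30 and -0.23. At equal totals T3 against CK3 gave -0.70, 0.67, 0.0711 and 0.73 in the same order, and CK3 against CK1 gave 0.79, 0.27, 0.24 and -0.95. Median-of-ratios scaling gave 0.90 (miR397), 0.35 (miR408) and -0.85 (miR528) for CK3 against CK1, and -0.73, -0.0153 and -0.10 for T3 against T1. Leading entries alone gave -1.09 (miR397) and 0.64 (miR528) for T3 against CK3, 1.16, 0.54 (miR408) and -0.84 (miR528) for CK3 against CK1, and -0.74 (miR397), 0.58 (miR398) and 0.10 (miR408) for T3 against T1. Maize names only gave 0.63 and -0.84 for miR528 in T3 against CK3 and CK3 against CK1. Equal totals moved the median of all sequences from 0.01 to 0.31 for T3 against CK3 and from 0.22 to -0.06 for CK3 against CK1.

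Strand balance (log2 of 3p over 5p) from the leading entries alone was 2.99, 1.81, 1.97 and 3.22 for miR398 in CK1, CK3, T1 and T3. It was 4.51 for miR408 in CK1, and -4.25, -2.97, -3.90 and -4.32 for miR528 in CK1, CK3, T1 and T3. Using only names that give a strand, which drops zma-miR408a, miR408 stood at -0.25 and -0.62 in CK1 and T1 and at 0.85 and 0.28 in CK3 and T3.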
